A study of Rattus norvegicus with 20 samples.

Results

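Early preneoplastic foci (EPFs) are small clusters of initiated rat hepatocytes that contain the placental form of glutathione S-transferase (GSTP). They were compared with control liver, gene by gene, on the 5 arrays whose source name is preneoplastic foci and the 5 arrays whose source name is control, out of 20 one-colour Illumina rat arrays in the series. The lesions came from male Fischer rats of the Resistant-Hepatocyte (R-H) model. There, hepatocytes are initiated by one dose of diethylnitrosamine (DENA), and 2-acetylaminofluorene (2-AAF) in the diet together with partial hepatectomy (PH) then lets these cells grow out. Laser microdissection of EPFs took place 7 days after PH and 4 weeks after DENA, and each EPF array held a pool of 10 to 15 GSTP-positive foci. The other 10 arrays held single nodules of the same model, microdissected 10 weeks after DENA, of which 5 were positive and 5 negative for cytokeratin-19 (CK-19), a keratin of bile duct cells. The control arrays are described as age-matched, without their ages. In one place the sources call the microdissected control areas normal liver, and in another they place them in rats that underwent the R-H treatment, so the treatment of the controls is not settled here. All EPFs carry recent 2-AAF feeding and PH, so that treatment and lesion type cannot be told apart.

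Initiated hepatocytes are known for resisting the block that 2-AAF puts on the division of normal hepatocytes, and they can grow when part of the liver is removed. NRF2, a transcription factor held in check by KEAP1, binds antioxidant response elements and switches on enzymes that conjugate, reduce and export reactive compounds, among them GSTP. Genes of mitosis are held down in resting cells by a repressor complex that sits on a short promoter element, the cell cycle homology region, and they are released in dividing cells. The adult male rat liver, in turn, owes much of its set of cytochromes P450 and secreted proteins to the pulsed release of growth hormone.

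These regulatory elements were searched in 4 promoters of genes that were higher in EPFs, taken from RefSeq (build GRCr8) and shown because the results below turn on the genes behind them. The capitals mark the antioxidant response element core TGACNNNGC in Gstp1 (chr1:210769656-210769955, minus strand), which had no match in Nqo1 (chr19:52220218-52220517, minus strand), and the cell cycle homology region core TTTGAA in Cdk1 (chr20:19265043-19265342, plus strand) and Ccnb2 (chr8:79981609-79981908, minus strand). Each window runs from 250 bases before to 50 bases after the annotated start of the gene.
Gstp1: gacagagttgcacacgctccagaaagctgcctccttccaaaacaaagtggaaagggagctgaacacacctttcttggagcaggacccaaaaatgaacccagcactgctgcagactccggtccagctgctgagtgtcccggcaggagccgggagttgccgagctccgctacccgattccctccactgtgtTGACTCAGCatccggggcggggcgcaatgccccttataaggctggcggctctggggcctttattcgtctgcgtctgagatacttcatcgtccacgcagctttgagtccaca
Nqo1: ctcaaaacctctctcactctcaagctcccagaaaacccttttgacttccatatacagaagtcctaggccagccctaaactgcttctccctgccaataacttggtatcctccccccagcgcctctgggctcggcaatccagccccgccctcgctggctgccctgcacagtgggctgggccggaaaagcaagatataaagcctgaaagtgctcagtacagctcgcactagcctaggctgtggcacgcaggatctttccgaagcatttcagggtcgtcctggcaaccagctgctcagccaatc
Cdk1: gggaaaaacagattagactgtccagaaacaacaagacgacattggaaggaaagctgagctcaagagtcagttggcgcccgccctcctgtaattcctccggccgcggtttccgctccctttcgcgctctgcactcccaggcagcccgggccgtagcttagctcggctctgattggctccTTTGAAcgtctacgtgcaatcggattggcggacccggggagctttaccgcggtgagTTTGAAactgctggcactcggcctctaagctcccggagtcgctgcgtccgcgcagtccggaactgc
Ccnb2: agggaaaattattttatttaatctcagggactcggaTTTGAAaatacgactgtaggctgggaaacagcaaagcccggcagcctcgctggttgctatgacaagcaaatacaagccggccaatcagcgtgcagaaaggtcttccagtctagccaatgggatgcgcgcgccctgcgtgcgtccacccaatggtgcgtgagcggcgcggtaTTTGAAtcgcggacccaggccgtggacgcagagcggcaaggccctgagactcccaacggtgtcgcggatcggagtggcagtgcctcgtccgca
The element of Gstp1 lay at position -61 from the start, those of Cdk1 at -72 and -16, and those of Ccnb2 at -214 and -43. Both strands were searched. The antioxidant response element core was in 6 of 16 promoters of NRF2 targets that were higher in EPFs (37.5%), in 2 of 11 of the list's other tested genes (18.2%) and in 787 of 5130 promoters of all genes tested (15.3%). The cell cycle homology region core was in 15 of 20 promoters of mitosis genes that were higher in EPFs (75.0%) and in 4 of 6 of the list's other tested genes (66.7%). By comparison, it was in 2 of 14 promoters of DNA replication genes that were higher (14.3%) and in 593 of 5130 of all genes tested (11.6%). Its share in the mitosis list was thus high in members that rose and in those that were not called alike. A match is a description of these windows and does not show that a factor was bound, and the absence of one says only that these letters are not in this window.

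The values are signals that the authors quantile-normalized, on a linear scale from 95.5 to 44882.6, and between 7370 and 7383 of 22523 probes per array exceeded 200. Of 13337 named genes, the 6102 whose brightest probe exceeded 200 on at least 5 arrays were tested on log2 signals with limma. A gene was called higher or lower when its Benjamini-Hochberg adjusted p was under 0.05 and its change at least 2-fold. If no array of a group exceeded 200, dim signals were set to 200 before the log2 means were taken, and the fold then stands as a lower bound ("at least"). Chips were read from the number in the sample titles, which no label names as a chip. By that number, EPFs occupied a chip of their own, so that chip and EPF cannot be told apart. Control 5 lay farthest from its group mean (root mean square log2 deviation 0.312, against 0.156 to 0.208 for the other controls and 0.126 to 0.200 for the EPFs). RNA came from 4 or 5 rats per kind of lesion and no label says which rat an array belongs to, so that the p-values measure the spread between arrays only. The number of arrays limits the precision.

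The label of the foci as hepatocytes was set against marker genes. None of 10 hepatocyte markers was called in either direction (limma; at an unadjusted p under 0.05, 1 higher and 3 lower with no fold threshold), and their median log2 fold change was 0.11. Over all genes tested, 6.26% were called higher and 6.15% lower, so that a count of none among 10 is close to that share. Albumin (Alb) had signals of 31437, 32809.8, 20067, 22294 and 39566 in control liver and 36692, 29650.2, 31437, 30437 and 28085 in EPFs, which overlap fully. A second Alb probe was lower in EPFs without overlap, at 27334 to 38024 in control liver and 21251 to 27214 in EPFs (log2 fold change -0.37, adjusted p = 0.00527, limma). Hnf4a, a transcription factor of hepatocytes, was also below control on all EPF arrays (log2 fold change -0.36, adjusted p = 0.0079, limma), with both changes under 2-fold. The Hnf4a signals lay near the filter of 200, at 219 to 277 in control liver and 176 to 217 in EPFs. The size of its change is therefore uncertain. Transthyretin (Ttr), another of the 10, was lower on all EPF arrays, at 16482 to 25361 against 26057 to 40572 in control liver. Signals of Alb and Ttr reached near the top of the scale, where the size of a change is uncertain too. Gstp1, the gene of the protein by which foci were recognised, had signals of 372, 261, 392, 449 and 419 in control liver and 43418, 42071, 44883, 44883 and 42749 in EPFs. Its EPF values lay at the top of the scale, where 2 arrays shared the maximum of the normalized scale. Its 117-fold difference has no exact size and is no independent finding (p = 0.00794 by an exact two-sided permutation test, the lowest that 5 arrays against 5 allow). Another Gstp1 probe, below the top of the scale, was at 266 to 348 in control liver and 8089 to 12472 in EPFs. On that probe the difference was 35.7-fold (log2 fold change 5.16, adjusted p = 6.67e-18, limma). A further Gstp1 probe was dim and not tested, at 127 to 145 in control liver and 129 to 142 in EPFs.

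Of the 6102 genes, 382 were higher (6.26%) and 375 lower (6.15%) in EPFs than in control liver, and the median log2 fold change of all genes tested was -0.02. Among the genes called, the EPF and control arrays did not overlap in 375 of 382 that were higher and 371 of 375 that were lower. Over all genes tested, the EPF arrays lay wholly above the control arrays for 1338 (21.9%) and wholly below for 1195 (19.6%). The changes were moderate in most genes, with a median of 2.60-fold among those higher and 2.69-fold among those lower, but 20 genes rose and 21 fell by more than 8-fold. A further 2660 genes passed the adjusted p with a change under 2-fold. Among 1941 tested probes that have no gene name here, 127 were higher and 79 lower.

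**Figure D1:**
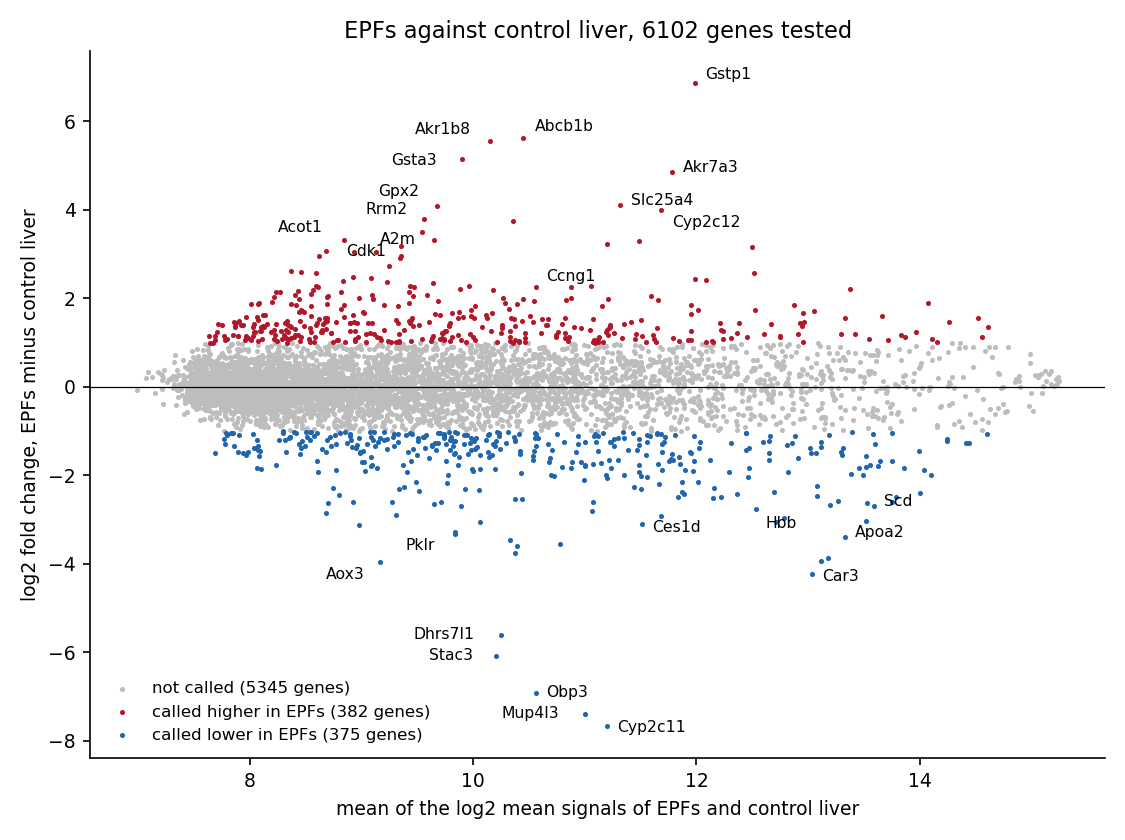
Log2 fold change between EPFs and control liver (y axis, limma, n = 5 arrays each) against the mean of the log2 mean signals of both groups (x axis) for the 6102 genes tested, with 382 genes called higher in red and 375 called lower in blue. The changes spread about evenly around 0, and the largest falls, Cyp2c11, Mup4l3, Obp3, Stac3 and Dhrs7l1, stand apart from the remaining genes.

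The largest rises were in enzymes and pumps that clear foreign compounds. Abcb1b, a multidrug export pump, had signals of 194, 213, 269, 186 and 132 in control liver and 7339, 9633, 10694, 12347 and 8808 in EPFs (log2 fold change 5.63, SE 0.39, adjusted p = 7.51e-11). Akr1b8, an aldo-keto reductase that reduces aldehydes, went from 152, 173, 171, 183 and 142 to 10141, 7686, 7141, 6459 and 7778. In both genes every EPF array stood more than an order of magnitude above every control array, and for Akr1b8, dim on all controls, the rise was at least 38.8-fold (adjusted p = 1.64e-11, limma). The alpha-class glutathione S-transferase Gsta3 rose at least 28.4-fold, the aflatoxin aldehyde reductase Akr7a3 29-fold, the glutathione peroxidase Gpx2 17-fold and the exporter of conjugates Abcc3 11.4-fold. Outside this group, the mitochondrial ADP/ATP carrier Slc25a4 rose 17.4-fold and carbonic anhydrase II (Car2) 13.4-fold.

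Of 33 tested NRF2 target and antioxidant genes, 20 rose and none fell, with a median log2 fold change of 1.44. The 20 include Gstp1, whose protein was used to recognise the foci. Nqo1, the quinone reductase used as the classical readout of NRF2, had signals of 684, 689, 651, 769 and 1001 in control liver and 7619, 4413, 7565, 9658 and 7248 in EPFs (log2 fold change 3.24, SE 0.17, adjusted p = 1.85e-12). EPF 2 was the lowest of the EPF arrays for Nqo1 and still more than 4 times the highest control. Gclc and Gclm, the catalytic and modifier subunits of the enzyme that limits glutathione synthesis, rose 5.95-fold and 3.36-fold, with Gclc at 2049, 2196, 2305, 1986 and 3369 in control liver and 17493, 7841, 13628, 14988 and 18413 in EPFs. The other members that rose were thioredoxin reductase (Txnrd1, 4.86-fold), glutathione reductase (Gsr, 3.06-fold), microsomal epoxide hydrolase (Ephx1, 4.64-fold), ferritin light chain (Ftl1, 2.17-fold), and Aldh1a1, Ugt1a6, Ptgr1, Ugdh, Cbr1, Gstm1 and Gsta2. The count was 20 or 21 with any 1 array left out.

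Many genes of cell division rose, more of them in mitosis than in DNA replication. Of 30 tested mitosis genes, 24 rose and none fell (median 1.45, or 1.24 with dim members at their bound), and of 29 DNA replication genes 15 rose and none fell (median 1.02, or 0.86 at the bound). Rrm2, the small subunit of ribonucleotide reductase, had signals of 179, 162, 202, 164 and 300.5 in control liver and 3425, 2226, 2265, 2322 and 3869 in EPFs (14-fold, adjusted p = 9.32e-14, limma). Cdk1, the kinase that drives entry into mitosis, went from 289, 261, 196, 209.7 and 208 to 2211, 1445, 1598, 1425 and 2485. For both genes the lowest EPF array was more than 4 times the highest control array, and EPFs 1 and 5 were the highest of the EPFs. The clamp of DNA polymerase, Pcna, rose 4.17-fold, the replicative helicase subunit Mcm6 4.23-fold, the spindle midzone protein Prc1 5.25-fold, cyclin B2 (Ccnb2) 4.76-fold and aurora kinase B (Aurkb) 4.58-fold. Among regulators of the G1 phase, Myc rose 3.62-fold and cyclin D1 (Ccnd1) 2.5-fold. Ccnd1 differed between the controls by chip, with 2244, 2165, 1339.8, 1319 and 709.9, and lost its call without the 2 controls of chip 3. Because many mitosis genes were dim in control liver, the count of 24 fell to 12 when signals under 300 were raised to 300.

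Targets of p53, the transcription factor that answers DNA damage, rose in the same arrays. Ccng1, cyclin G1, had signals of 704, 687, 781, 589 and 698 in control liver and 2911, 3723, 3726, 3005 and 3147 in EPFs (log2 fold change 2.25, SE 0.13, adjusted p = 5.93e-12). Mdm2, the ubiquitin ligase that feeds back on p53, went from 394, 378, 371, 311 and 415 to 1253, 1977, 1454, 1763 and 1476 (4.2-fold), and neither gene's arrays overlap. Cdkn1a, the cyclin-dependent kinase inhibitor p21, was at or under 200 on all control arrays and at 277, 344, 361, 367 and 405 in EPFs, at least 1.74-fold, and was no longer called when signals under 300 were raised to 300 (log2 fold change 0.24). With Phlda3, an inhibitor of AKT (2.39-fold), and the DNA damage gene Gadd45a (2.04-fold), 5 of 12 tested p53 targets rose and none fell (median 0.97, or 0.77 at the bound). The call of Gadd45a was lost without control 5 (0.92) or EPF 2 (0.95). None of 15 apoptosis genes passed both thresholds in limma (at an unadjusted p under 0.05, 5 higher and 3 lower).

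The machinery of protein synthesis rose less, and unevenly. Of 55 ribosomal protein genes 13 rose and none fell, and their median of 0.76 exceeded that of all genes. Rpl17 was at 6721, 7917, 7792, 8414 and 6269.5 in control liver and 21746, 25542, 20694, 21675 and 23161 in EPFs (3.05-fold), whereas Rpl6 (2.37-fold) was lower on the 2 controls of chip 1 than on the other 3 and lost its call without them (log2 fold change 0.97). Of 40 translation factors 9 rose, led by Eif5a (2.9-fold), and of 28 genes of the nucleolus and ribosome assembly 6 rose, among them the H/ACA protein Nhp2 (3.9-fold), the box C/D proteins Nop58 (3.88-fold) and Nop56 (2.72-fold), and nucleophosmin (Npm1, 3.34-fold). Nucleolin (Ncl) had a log2 fold change of -0.03 (adjusted p = 0.865, limma). Without EPF 2 the translation factors that rose numbered 6. Phgdh, the first enzyme of serine synthesis, rose at least 4.28-fold and Psph, its last, 2.4-fold. No gene among 35 proteasome subunits or 54 subunits of oxidative phosphorylation was called (medians 0.10 and 0.14), where an unadjusted p under 0.05 in limma with no fold threshold gave 15 higher and 4 lower of the proteasome and 17 higher and 3 lower of oxidative phosphorylation. Of the lists named so far in which no gene was called lower, the number lower at an unadjusted p under 0.05 in limma was 3 of the p53 targets, 2 of the replication genes, 8 of the translation factors, 1 of the ribosomal proteins, 1 of the NRF2 targets and 0 of the mitosis and nucleolar genes. The methods' t-test also called none of them lower.

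**Figure D2:**
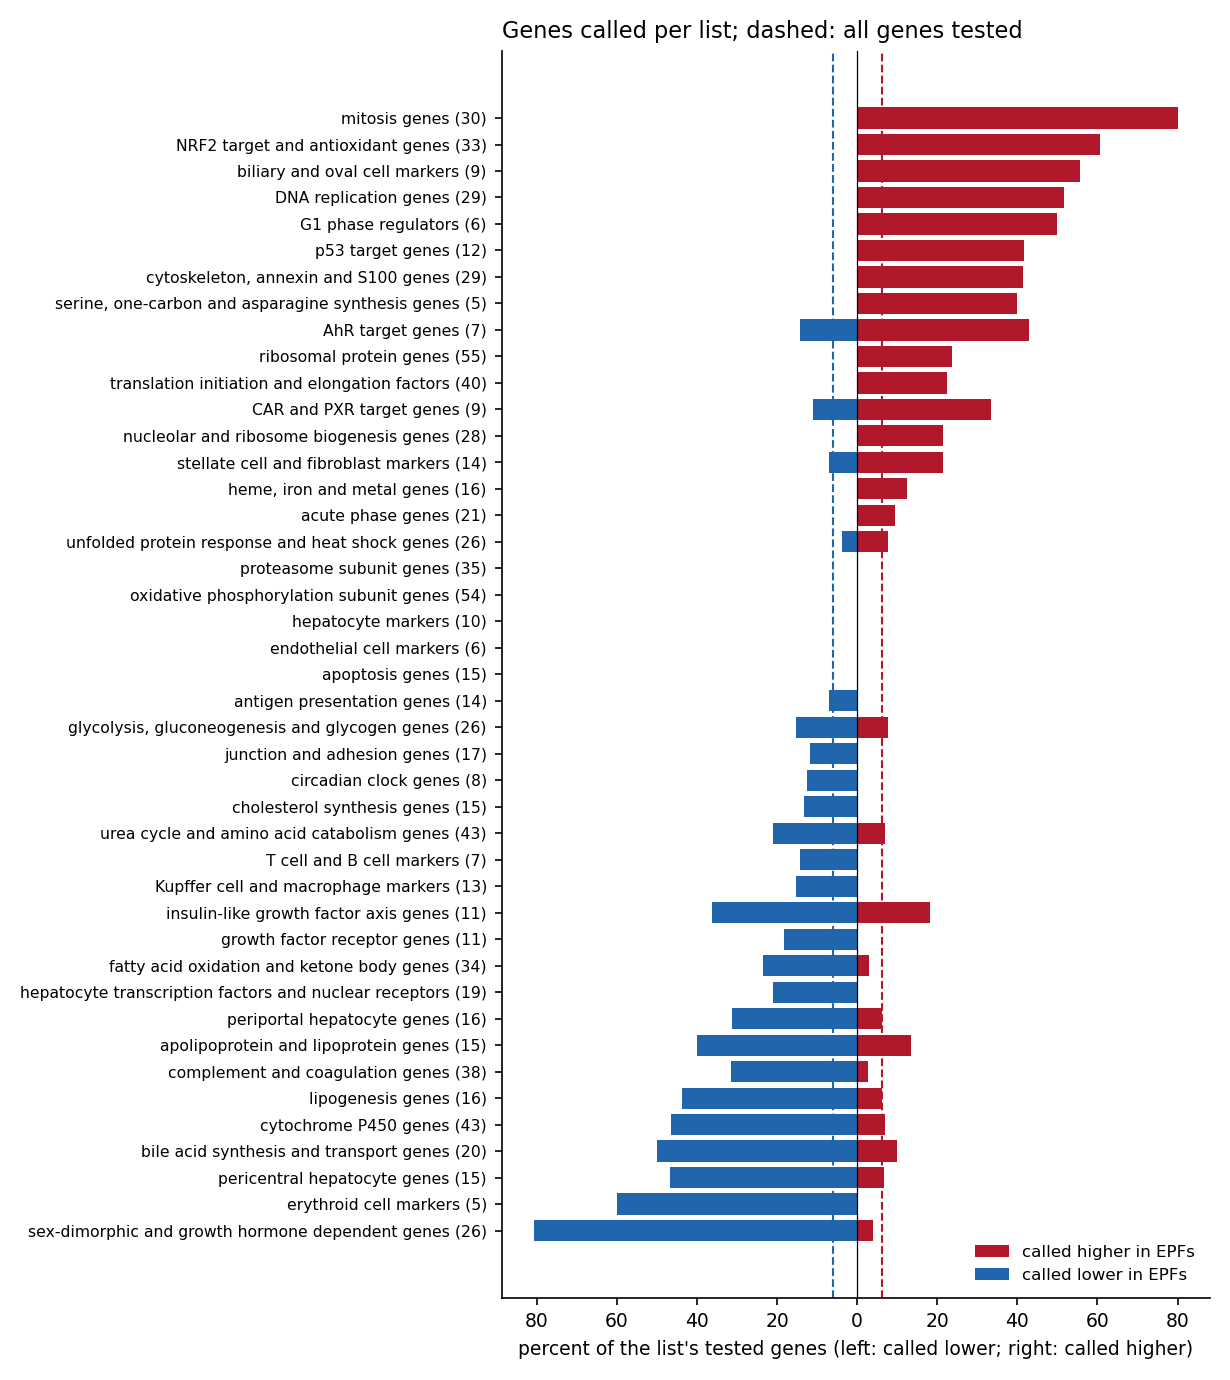
Percent of the tested genes of each list called higher (red, right) or lower (blue, left) in EPFs than in control liver, for lists with at least 5 tested genes (number in brackets). The dashed lines mark all genes tested (6.26% higher, 6.15% lower). Mitosis genes reach 24 of 30 on the right, and the sex-dimorphic list 21 of 26 on the left.

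On the other side, genes of the male pattern of liver expression fell together. Among the 26 genes that are sex-dimorphic or depend on growth hormone, 21 fell and 1 rose, with a median log2 fold change of -2.33. Cyp2c11, the male-specific cytochrome P450, was at 27914, 27479, 43418, 36119 and 32329.6 in control liver and at 151, 170.0, 167, 187 and 146 in EPFs. It thus went from among the brightest genes to the level of background, a fall of at least 165-fold (adjusted p = 2.87e-13, limma). Obp3, a urinary carrier protein of male rats, went from 13585, 20374, 18413, 11348 and 19975 to 138, 129, 133, 139 and 142, at least 81.6-fold lower. Its relative Mup4l3, which is not among the 26, fell at least 132-fold. The dehydrogenase Dhrs7l1 fell at least 42-fold, carbonic anhydrase III (Car3) 18.8-fold, the sulfotransferase Sult1c3 13.4-fold and the hydroxyacid oxidase Hao2 11.8-fold. The one that rose was the female-specific Cyp2c12, from 890.0, 1013, 879.9, 400.0 and 1006 in control liver to 10079, 15771, 15452, 12830.0 and 10694 in EPFs (log2 fold change 4.00, SE 0.36, adjusted p = 4.48e-09). Control 4 was the lowest of the controls for Cyp2c12, and no array of the 2 groups overlaps. The growth hormone receptor (Ghr) fell 2.58-fold and Igfals, the growth hormone dependent carrier of insulin-like growth factors, 5.08-fold. Members of the P450, urinary protein and transferase families have near-identical relatives, so that a probe may read more than 1 of them.

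Stac3 and Aox3 belonged to no list and fell from high levels to background. Stac3, known as an adaptor of calcium channels in skeletal muscle, went from 9985, 7738, 7699, 6675 and 18168 to 148, 128, 142, 136 and 139.6, at least 46.8-fold lower (adjusted p = 1.67e-12, limma). Aox3, an aldehyde oxidase, went from 2159, 1977, 2488, 2202 and 2461 to 145, 131, 161, 145 and 145, at least 11.2-fold lower. For both, all EPF arrays were at or under 200, and no control array was near that level.

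Enzymes of drug and bile acid metabolism followed. Of 43 cytochromes P450, 20 fell and 3 rose (median -0.87, or -0.85 at the bound). Those that rose, besides Cyp2c12, were the steroid 17-alpha-hydroxylase Cyp17a1 (6.64-fold) and the inducible Cyp1a1, dim on all controls (at least 1.51-fold), while its relative Cyp1a2 fell 2.78-fold. Both are targets of the aryl hydrocarbon receptor, of which 3 of 7 tested rose and 1 fell. The others that rose, Nqo1 and Ugt1a6, are also among the NRF2 targets counted above. Cyp1a1 lost its call with 50 added (log2 fold change 0.92) or signals under 300 raised to 300 (0.15). The ethanol-metabolising Cyp2e1 had a log2 fold change of -0.14 (adjusted p = 0.515, limma), with 4 of 5 EPF arrays between 34933 and 37124 and EPF 1 at 22854. Bile acid synthesis and transport had 10 genes that fell and 2 that rose, of 20. The uptake carrier Slco1b2 fell 5.57-fold, Slc27a5, which activates bile acids, 5.5-fold, and Baat, which conjugates them, 5.36-fold, with Baat at 8768, 9059, 9478, 9430.4 and 7220.3 in control liver and 1615, 1483, 1808, 1874 and 1433 in EPFs. Their receptor Nr1h4 (FXR) fell 2.04-fold, close to the 2-fold threshold, and lost its call without control 3 (log2 fold change -0.99). Its target Nr0b2 (SHP) fell at least 2.22-fold. The exporters Abcc3 and Abcg5 (2.19-fold) rose.

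In energy metabolism, some genes of lipid synthesis and of glucose handling were lower. Of 16 lipogenesis genes, 7 fell and 1 rose. Scd, the stearoyl-CoA desaturase, was at 29473, 19594, 37379.8, 28879.8 and 33686 in control liver and 4181, 1742, 6236, 8134 and 5068 in EPFs (log2 fold change -2.69, SE 0.26, adjusted p = 1.3e-08). The controls and the EPFs do not overlap, and EPF 2 was the lowest. Thrsp, a nuclear protein induced with lipogenesis, fell 6.14-fold, Acly, which makes cytosolic acetyl-CoA, 4.13-fold, and Srebf1, the regulator of these genes, 4-fold, while Dgat1, an enzyme of triglyceride synthesis, rose 2.2-fold. Of 26 genes of glycolysis, gluconeogenesis and glycogen, 4 fell, 2 rose and 20 were not called, with a median log2 fold change of -0.0046, beside 6.15% lower and 6.26% higher over all genes tested. The liver pyruvate kinase Pklr fell 9.97-fold, the glycogen-targeting phosphatase subunit Ppp1r3b 12.1-fold, glucose-6-phosphatase (G6pc1) 5.38-fold and pyruvate carboxylase (Pc) 3.94-fold. Aldoa, an aldolase low in adult liver, rose 2.94-fold and Ugp2, which supplies UDP-glucose, 2.34-fold, a call lost without the controls of chip 3 (log2 fold change 0.92). Pck1, the gluconeogenic carboxykinase, had a log2 fold change of -0.50 (adjusted p = 0.0893, limma).

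Of 34 genes of fatty acid oxidation, 8 fell and 1 rose. That one, the cytosolic acyl-CoA thioesterase Acot1, was dim in control liver (149, 138, 157, 122 and 137) and at 1291, 2605, 1668, 1034 and 917 in EPFs, at least 6.99-fold higher. Catalase (Cat) fell 3.13-fold, the acyl-CoA synthetase Acsl1 3.42-fold and the pyruvate dehydrogenase kinase Pdk4 3.68-fold. Cpt1a, the gate of mitochondrial oxidation, had a log2 fold change of 0.01 (adjusted p = 0.978, limma), with control 5 at 1278 and the other controls between 3869 and 5402. Of 43 genes of the urea cycle and amino acid catabolism, 9 fell and 3 rose. Gnmt, which uses up methyl groups, fell 5.96-fold and ornithine aminotransferase (Oat) 5.67-fold, while arginase (Arg1) rose from 11736, 9450.2, 12801, 8482 and 17493 in control liver to 34664, 31437, 29101, 28495 and 37379.8 in EPFs (2.76-fold). Cps1, the first enzyme of the urea cycle, had a log2 fold change of 0.86, which passed the adjusted p (0.0415, limma) but not the 2-fold threshold, and reached 1.14 without control 5.

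Among secreted proteins, some genes fell and others did not pass the test. Of 38 complement and coagulation genes, 12 fell and 1 rose, among them C8g (4.13-fold), coagulation factor XII (F12, 3.66-fold) and prekallikrein (Klkb1, 3.57-fold), while kininogen (Kng1) rose 2.73-fold, with EPF 5 at 2423 and the other EPFs between 7422 and 11712. Of 15 apolipoprotein and lipoprotein genes 6 fell and 2 rose. Apoa2 was at 33080.1, 31219, 29348, 38204 and 30187 in control liver and 3232, 1565, 3969, 4693 and 2859 in EPFs (log2 fold change -3.40, SE 0.33, adjusted p = 1.14e-08), and its lowest control array exceeded its highest EPF array more than 6 times. Mttp, which loads lipid onto apolipoprotein B, rose 2.2-fold. Of 21 acute phase genes none fell and 2 rose (9.52%), beside 6.15% lower and 6.26% higher over all genes tested. At an unadjusted p under 0.05 in limma, 6 were higher and 5 lower. The 2 that rose were the metallothionein Mt1 (2.96-fold) and alpha-2-macroglobulin (A2m), the main acute phase protein of the rat. A2m had signals of 197, 223, 224, 199 and 306 in control liver and 3969, 2297, 3465, 3707 and 521 in EPFs (log2 fold change 3.33), so that EPF 5 stood well below the other EPFs but above every control. Haptoglobin (Hp) had a log2 fold change of 0.23 (adjusted p = 0.235, limma).

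In the insulin-like growth factor axis, the binding proteins moved in opposite directions. Igfbp1 rose from 720.1, 453, 499, 1070.2 and 1367 to 1799, 8930.1, 5897, 2469 and 2506 (4.77-fold), with EPF 2 highest. Igfbp3 fell from 1127, 1218, 1286, 1223 and 1218 to 367, 394, 399, 352 and 294 (3.38-fold). The insulin receptor substrate Irs3 fell at least 5.04-fold. Epidermal growth factor (Egf) fell 3.79-fold and its receptor Egfr 2.07-fold, the latter with a log2 fold change of -0.90 and no call without control 5. Of 19 hepatocyte transcription factors and nuclear receptors 4 fell and none rose. Hnf4a had a log2 fold change of -0.36, short of 2-fold, at signals near the filter of 200. Of 29 cytoskeleton, annexin and S100 genes 12 rose and none fell, led by the tubulin Tubb6 (7.52-fold), annexin A2 (Anxa2, 5.2-fold) and S100a11 (4.55-fold), and the hepatocyte keratin Krt8 rose 2.96-fold. The gap junction protein Gjb1 fell 2.18-fold, a call lost without the 2 controls of chip 1 (log2 fold change -0.88), and E-cadherin (Cdh1) had a log2 fold change of -0.12 (adjusted p = 0.676, limma). The fetal serum protein Afp rose 2.38-fold.

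**Figure D3:**
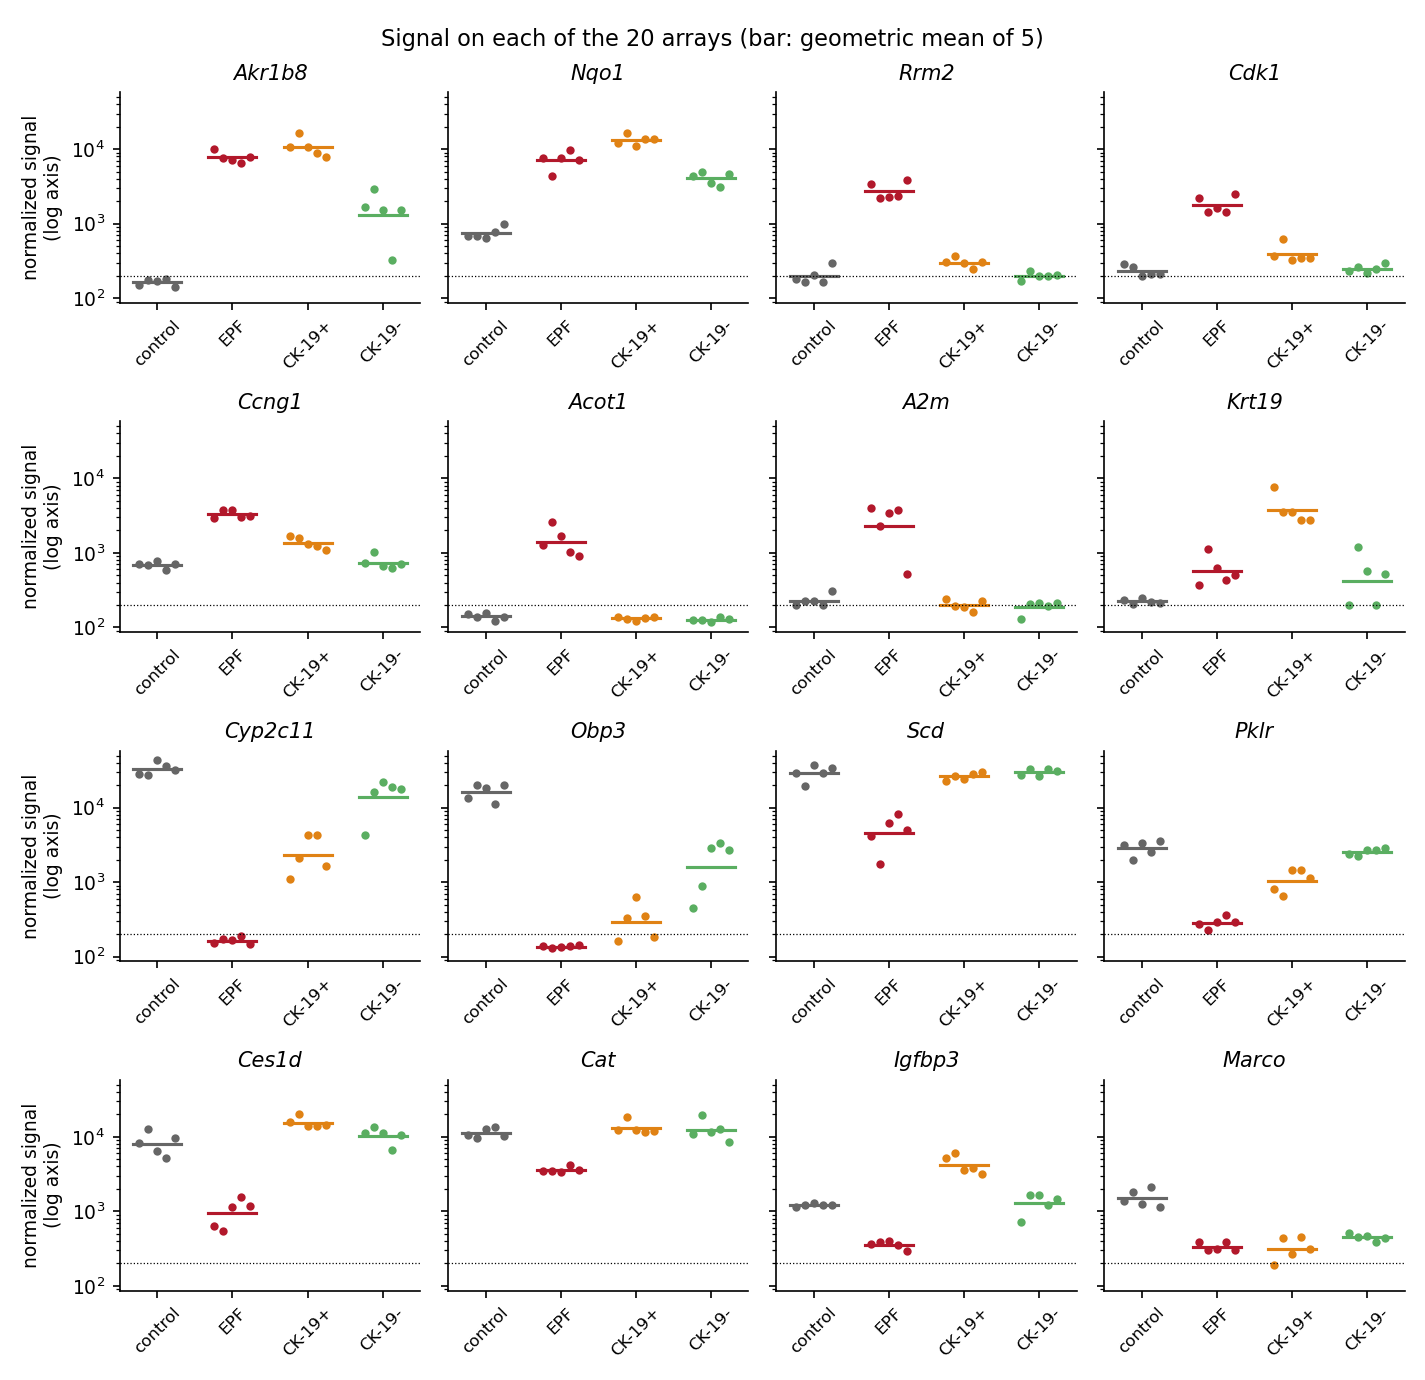
Normalized signal (log axis) of 16 genes on each of the 20 arrays, grouped as control liver, EPF, CK-19-positive nodule (CK-19+) and CK-19-negative nodule (CK-19-), with a bar at the geometric mean of the 5 arrays of a group and a dotted line at the signal of 200 used as filter. Acot1 and A2m stand high in EPFs alone, while Scd, Cat and Ces1d stand low in EPFs alone.

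Markers of other liver cells also differed between the microdissected samples. Of 9 biliary and oval cell markers 5 rose and none fell (Cd24, Tspan8, Epcam, Krt19 and Prom1). Krt19, the gene of CK-19, had signals of 236, 206, 248, 222 and 209.5 in control liver and 371, 1118, 635, 435 and 512 in EPFs (log2 fold change 1.34, SE 0.38, adjusted p = 0.00513, with an exact two-sided permutation p = 0.00794, the smallest possible here), and its call was lost when signals under 300 were raised to 300 (0.92). By immunostaining, the paper found the EPFs wholly negative for the CK-19 protein. Krt19 was at 2738 to 7686 in CK-19-positive nodules, which were chosen by that protein. In CK-19-negative nodules it was at 197 to 1181, which overlaps the EPFs. Of the 9 markers, 3 were lower and none higher in EPFs than in CK-19-positive nodules (limma; at an unadjusted p under 0.05, 4 lower and 3 higher). The summed signal of the list's 9 genes was 1969.9 to 2286 on control arrays and 3571 to 7005 on EPF arrays, and Spp1, another defining marker, was at 154, 189.9, 185, 152 and 159.7 and 193, 343, 298, 266 and 199. Of 14 stellate cell and fibroblast markers 3 rose (Vim, Col1a2 and Col4a1) and 1 fell (Reln), with a sum of 8234 to 10052 in control liver and 10133 to 19233 in EPFs. The calls of Col4a1 without EPF 2 and of Col1a2 without the controls of chip 1 were lost. Of 13 Kupffer cell markers 2 fell, with the scavenger receptor Marco at 1360.4, 1793, 1254, 2146 and 1128 in control liver and between 299 and 392 in EPFs, and Vsig4 2.38-fold lower (log2 fold change -0.98 and no call without the 2 controls of chip 3). The list's summed signals overlapped narrowly (sum 17384 to 26703 against 13772 to 17460.2). Of 5 erythroid markers 3 fell, with the globin Hbb at 16264, 13897, 17878, 17262 and 11986 in control liver and 2277, 2475, 2000.1, 1990.2 and 2552 in EPFs (sum 27532 to 53141 against 6212 to 7643). None of 6 endothelial markers was called (limma; at an unadjusted p under 0.05, 2 higher and 2 lower). Of 7 T and B cell markers Gzma alone fell (14.3%, beside 6.15% lower over all genes tested). In such samples fewer cells of a type and less RNA per cell cannot be told apart, and the part these cells play in the changes given here was not tested.

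The 5 EPF pools were alike in the direction of most of these changes but not in their size. In mean log2 signal over control, EPF 1 was at 0.01 for the stellate list, within the control arrays (-0.08 to 0.05). EPF 5 was at -0.20 for the acute phase list, against 0.13 to 0.33 for the other pools. EPF 2 was the highest of the EPFs for 9 of 9 biliary and 13 of 14 stellate markers, although it was the highest for 24.9% of all genes tested. Its mean log2 signal over control was 1.37 for the biliary list, against 0.56 to 0.96 for the other pools, and 0.81 for the stellate list, against 0.01 to 0.51. EPF 2 was also the lowest pool for 23 of 29 DNA replication genes, 21 of 33 NRF2 targets and 11 of 16 lipogenesis genes, against 26.1% of all genes. EPFs 1 and 5 between them held the highest value for all 29 replication genes and all 30 mitosis genes. Mcm6, for instance, was at 1676, 627, 896, 991 and 1599 in EPFs 1 to 5. EPF 1, in turn, was the lowest for 10 of 12 p53 targets and 12 of 15 pericentral genes. All members of a list on 1 array share that array's RNA, so that these counts describe pools and carry no test. Without EPF 2, 365 genes were higher and 361 lower than in control liver, of which 353 and 354 were among those called with all pools, and the biliary list kept its count of 5.

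**Figure D4:**
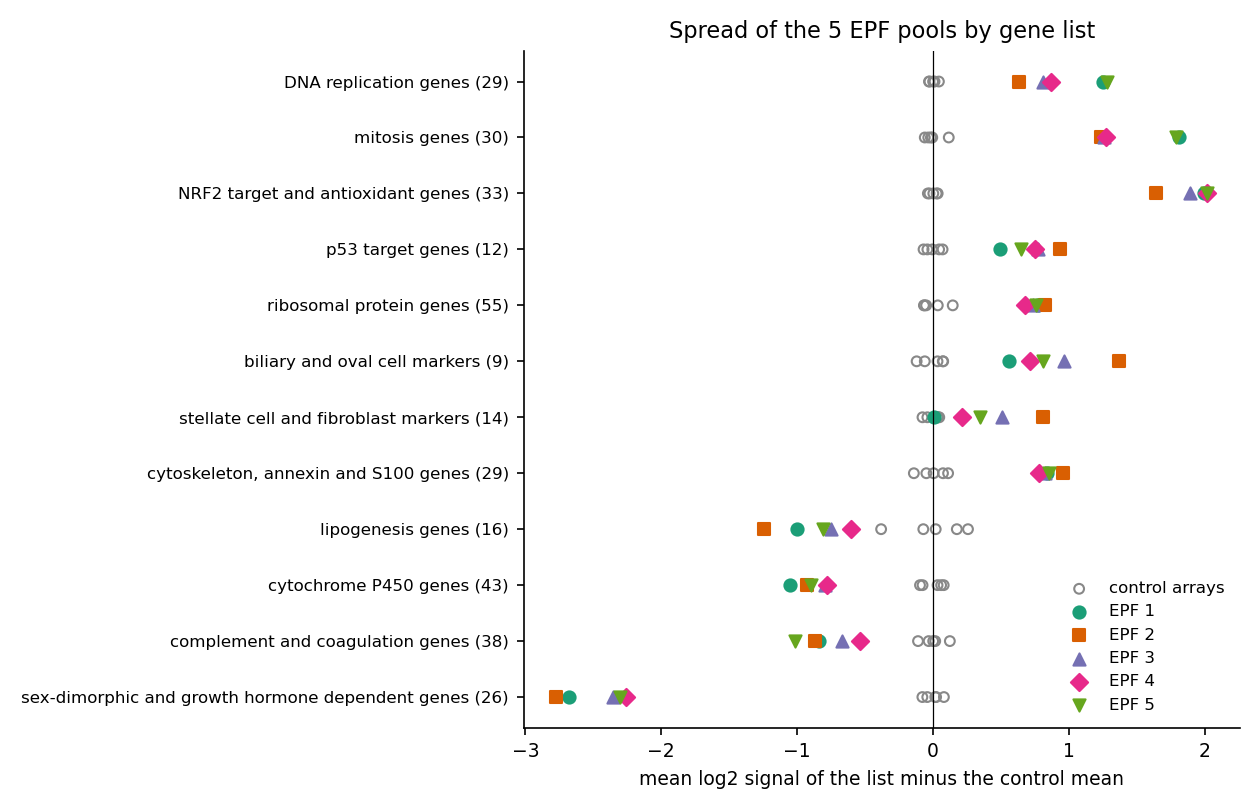
Mean log2 signal of the tested genes of 12 lists (number in brackets) on each array, minus the mean of the 5 control arrays, with control arrays as open circles and the 5 EPF pools as filled symbols. EPF 2 lies farthest right for biliary and stellate markers and farthest left for DNA replication, NRF2 and lipogenesis genes among the EPFs, and EPFs 1 and 5 lie together at the right for replication and mitosis genes.

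Part of the difference from control liver also set EPFs apart from the later nodules. In direct contrasts, 167 genes were higher (2.74%) and 209 lower (3.43%) in EPFs than in CK-19-positive nodules, and of 544 genes called against CK-19-negative nodules 292 were lower in EPFs (4.79% of genes tested) and the others higher (4.13%). Of the 382 genes higher in EPFs than in control liver, 88 were also higher than in both nodule groups, and of the 375 lower genes 73 were lower than in both. The contrasts share the EPF arrays, so these counts are not independent. No chip held EPFs together with nodules, so that chip and lesion type cannot be told apart in them. For 152 of the 382 and 134 of the 375, no difference from either nodule group passed both thresholds.

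The genes that were higher than in both nodule groups included those of division, p53 targets and single enzymes. Of 30 mitosis genes, 16 were higher in EPFs than in CK-19-positive and 23 than in CK-19-negative nodules, and none was lower in either contrast (0 also at an unadjusted p under 0.05 in limma). Rrm2 averaged 2822 ± 771 in EPFs, against 303 ± 41.9 for CK-19-positive nodules and 201 ± 21.3 for the CK-19-negative ones (± SD over 5 arrays), with direct log2 fold changes of 3.19 and 3.78. Ccng1 (1.27 and 2.15), Mdm2 (1.17 and 1.89) and Phlda3 (1.23 and 2.03) were higher than in both groups of nodules on the same scale, and Cdkn1a, dim in all nodules, was at least 1.74-fold higher, though not called against either group with signals under 300 raised to 300 (0.24) or against CK-19-positive nodules with 50 added (0.999, just under the threshold of 1). A2m was at 242, 193, 186, 162 and 223 in CK-19-positive nodules, about its level in control liver, and had direct log2 fold changes of 3.52 (adjusted p = 8.09e-08) and 3.61 (adjusted p = 3.42e-08, limma). Acot1 and the aldo-keto reductase Akr1b7 were dim in all nodules as well, and were at least 6.99-fold and 5.45-fold higher in EPFs. Cyp17a1 (2.76 and 2.24) and Trib3, a pseudokinase of the stress response (1.87 and 1.64), were also higher than in both groups. Got1, the cytosolic aspartate aminotransferase, was at 19504, 19708, 11946, 4256 and 19504 in EPFs, where EPF 4 overlapped the controls (3587, 3015, 4387, 4134 and 5837). It also overlapped the CK-19-negative nodules (3147, 4395, 6141, 5112 and 5294).

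The antioxidant genes took another course. No NRF2 target was higher in EPFs than in CK-19-positive nodules and 3 were lower, while 4 were higher and none lower than in CK-19-negative nodules (limma). At an unadjusted p under 0.05 in limma, 14 of 33 were lower and 2 higher than in the former. In the same way, 21 were higher and 3 lower than in the latter. The median log2 fold changes were -0.33 and 0.48. Akr1b8 averaged 7841 ± 1389 in EPFs, against 10867 ± 3227 for CK-19-positive nodules and 1597 ± 924 for the CK-19-negative ones (± SD over 5 arrays), with direct log2 fold changes of -0.44 (adjusted p = 0.316) and 2.58 (adjusted p = 2.63e-06, limma). Gclc was lower in EPFs than in CK-19-positive nodules (-1.18, or -0.98 and no call without EPF 2). Gclm averaged 10844 ± 2691 in EPFs against 21949 ± 4121 for CK-19-positive nodules, and Nqo1 7301 ± 1876 against 13413 ± 1992. Gstp1 lay at the top of the scale in both groups, where a difference could not show. Defb1, a defensin that rose at least 5.83-fold over control, was 8.29-fold lower in EPFs than in CK-19-positive nodules.

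The genes lower than in both nodule groups had varied roles. Ces1d, a carboxylesterase of lipid droplets and the endoplasmic reticulum, was at 8259, 12658, 6469, 5206 and 9543 in control liver, 642, 547, 1147, 1543 and 1166 in EPFs, against 15899.9, 19975, 14174, 13959 and 14407 for CK-19-positive nodules, with direct log2 fold changes of -4.05 and -3.47. The EPF arrays were below every array of the other 3 groups. Serpina3c, a serine protease inhibitor (-3.05 and -3.33), Scd (-2.54 and -2.73), Cat (-1.87 and -1.76), Acly (-1.30 and -2.09) and Mup4l4 (-2.60 and -4.04) followed. The Mup4l4 probe used was at 26428 to 44883 in control liver, up to the top of the scale, and at 1559 to 3403 in EPFs. A second Mup4l4 probe was at 18168 to 22854 in control liver and 161 to 248 in EPFs, so that the size for this gene is uncertain. Igfbp3 lay on either side of control liver in the lesions, with a mean of 361 ± 42.2 in EPFs against 4359 ± 1225 for CK-19-positive nodules (SD, n = 5 each, direct log2 fold change -3.56, adjusted p = 8.63e-12, limma). Cyp2c11, lower in EPFs than in both nodule groups as well, had intermediate levels in nodules, at 1087, 2083, 4269, 4224 and 1636 in CK-19-positive and 4269, 15967, 22156, 18672 and 17975 in CK-19-negative nodules. All of these arrays lay above the EPFs and below the controls.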

How the data were processed

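Gene expression in laser-microdissected EPFs and control liver (5 arrays each) and in 10 nodules was measured on one-colour Illumina rat arrays. The authors loaded the arrays into BeadStudio 3.0.19.0 (per the submitters' processing notes) and BRB Array Tools, applied quantile normalization and deposited linear intensities, with no background step stated. The table before normalization was not used here, because its 40 value columns match no sample label. Any background correction from it was therefore not run.

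Of 22523 probes, 13793 were named through the platform annotation (13337 genes) and 8730 were not named here. Each gene was represented by its brightest probe, by mean signal. The 6102 genes with signals over 200 on 5 or more arrays entered a single limma 3.58.1 fit (R 4.3.3) of log2 signals to 4 groups on the 20 arrays, with eBayes and Benjamini-Hochberg adjustment over these genes. The gene lists, groups of genes and thresholds were chosen with earlier results of these data known, so that they give no independent support. The script was tested on simulated data. Exact two-sided permutation tests were run for Gstp1 and Krt19 only, and the other p-values of single genes came from limma. Named were, among called genes whose arrays did not overlap, the 12 that rose and the 12 that fell most, the 4 largest called and preset genes of each list, the 6 largest differences in each direction among genes called both against control and, the same way, against each nodule type, and the genes measured by RT-PCR in the study. Some genes of the lists were left out of the text. Abcg5, Cbr1, Dgat1, Ephx1, Gadd45a, Gsr, Gsta2, Gstm1, Kng1, Mttp, Prom1, Ptgr1, Rhbg, Txnrd1, Ugdh and Ugp2 were named after their values were seen. Lists were described by counts and medians.

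The arrays lay on 4 chips, of which chip 4 held the EPFs alone, chip 1 controls 1 and 2, chip 2 control 3 and chip 3 controls 4 and 5. Array numbers are names in the order of the sample list. No pair of arrays shared more than 0.133% of its values. Alternatives were other filters and floors, 50 added, a background level subtracted, every probe by itself, a fit of 2 groups, chip as a random block, the controls of each chip left out, the methods' t-test, and each array left out. Python 3.11.15 with matplotlib 3.10.9 drew the figures.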

Additional observations from a re-analysis of the deposited data

Results flagged for a closer look

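In 17 of 282 groups of 5 arrays checked, over the genes named here apart from Ttr, 1 array stood further from the others on the log2 scale than Dixon's critical value for 5 samples (0.71). Chance flags about 1 in 20 groups. Of these, 9 were in control liver and 8 in EPFs.

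Control 5 was such an array for 7 genes. It was lowest for Afp at 926 (1494 to 1681 on the other controls), for Baat, which joins bile acids to amino acids, at 7220.3 (8768 to 9478), for Cpt1a, which admits fatty acids to mitochondria, at 1278 (3869 to 5402) and for Nr1d1 at 159 (515 to 710.4). It was highest for Bmal1 at 467 (219 to 258), for Cyp17a1 at 314 (196 to 222) and for Gclc at 3369 (1986 to 2305). Control 4 was lowest for Cd24 at 198 (274 to 299.9) and for Cyp2c12 at 399.96 (879.9 to 1013).

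Among EPFs, EPF 5 was lowest for A2m at 521 (2297 to 3969 on the other EPFs) and for Kng1 at 2423 (7422 to 11712), and highest for Car2 at 6922 (3931 to 4495). EPF 1 was lowest for Cyp2e1 at 22854 (34933 to 37124) and highest for Gpx2 at 3949.8 (3137 to 3315). EPF 2 was lowest for Gsta3 at 4435 (5769 to 6269.5) and for Myc at 602 (861 to 984). EPF 4 was highest for catalase (Cat) at 4181 (3412 to 3555).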

How the results depend on the processing

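Counts of called genes over all genes tested stayed within 1.5 times the values given above under each alternative except 1. With a background level subtracted before log2, which widens the folds of dim genes, 732 genes were higher and 649 lower in EPFs than in control liver, while 926 were called against CK-19-positive nodules and 1165 against CK-19-negative ones. With each array left out in turn, 365 to 403 genes were higher and 361 to 393 lower than in control liver, 354 to 411 were called against CK-19-positive nodules and 534 to 585 against CK-19-negative ones. Counts of single lists moved more, that of the mitosis genes from 24 to 12 with signals under 300 raised to 300, and to 4 under the study's filter, which tested 5 of them. Of 178 gene values printed, 157 kept their call under each setting run, 19 lost it under at least 1, 2 gained one (Cps1 and Spp1, the latter at 1.68 with background subtracted) and none reversed. Calls ended for Cyp1a1 (0.92), Prom1 (0.94), Egfr (-0.90), Gadd45a (0.96), Col4a1 (0.94) and Nr1h4 (-0.97), and for Cdkn1a against CK-19-positive nodules (0.999), with 50 added, and for Cdkn1a against control and both nodule groups (0.24), Krt19 (0.92), Cyp1a1 (0.15), Prom1 (0.21), Gzma (-0.91), Egfr (-0.57) and Nr0b2 (-0.56) with signals under 300 raised to 300. The cause was not tested. No paired analysis was possible because the labels give each array of a group the same replicate number. Alternatives that need the signals before normalization were not run. The number of arrays limits the precision.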

Other observations

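Some gene groups outside the comparisons given above differed between EPFs and control liver as well. Of 15 pericentral hepatocyte genes 7 fell and 1 rose, with medians of -0.58 for this list and -0.48 for the 16 periportal genes, of which 5 fell and 1 rose. The vasopressin receptor Avpr1a, a pericentral gene, was at 2609, 2027, 3528, 3921 and 3315 in control liver and 243, 358, 354, 399 and 510.2 in EPFs (8.28-fold lower), and Pigr, the carrier of polymeric immunoglobulin and periportal, fell 3.51-fold. The genes that rose were the pericentral ammonium transporter Rhbg (2.73-fold) and the periportal arginase Arg1. Both zones of the lobule were thus represented among the genes that fell. Among antigen presentation genes 1 of 14 was called, about the share over all genes tested (6.15% lower), the class I gene RT1-S3, which fell 4.78-fold. Class I genes have many near-identical relatives, so that its probe may read more than 1 gene.

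Among 8 clock genes 1 was called (12.5%, beside 6.15% lower over all genes tested), Bhlhe40, which fell 2.47-fold. Control 5 departed from the other controls in the core clock. Bmal1, an activator of the clock, was at 224, 258, 219, 239.6 and 467 on the control arrays and at 254, 185, 214, 171 and 219.8 on the EPF arrays, and Nr1d1, its repressor, at 710.4, 647, 572, 515 and 159 and 493, 613, 701, 874 and 789.7. The sources used here give no time of day for any array.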
